A study of Mus musculus with 18 samples.

Results

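The genes described here encode the proteins of the cytosolic ribosome. They were taken by symbol from the count table: 85 of its 25239 genes, 52 of the large subunit (Rpl) and 33 of the small subunit (Rps), including Rpsa, Rplp0, Rplp1 and Rplp2. Symbols that carry a pseudogene suffix (9) and the Rps6k kinases (10), whose names are similar but which are enzymes and no ribosomal proteins, were not taken. The filter on low counts passed 84 members and 16582 genes in all. The member that did not pass was Rpl26, with 0 to 10 counts per library.

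The RNA came from mouse E14Tg2a embryonic stem cells, a male line, turned first into epiblast-like cells (EpiLCs) in activin A and Fgf and then grown as aggregates towards primordial germ cell-like cells (PGCLCs). Wild-type (WT) cells and cells with all of Tet1, Tet2 and Tet3 deleted (TKO, a single clone) were profiled as EpiLCs, as aggregates on days 2 and 6 without cytokines, and on day 6 with BMP4, BMP8a, SCF, LIF and EGF. TKO aggregates with cytokines were also profiled on day 2, so that 9 groups of 2 libraries each made 18 libraries, all of ribosomal RNA-depleted total RNA. By the methods, WT day 6 cells with cytokines were sorted on surface markers of PGCLCs, whereas all other aggregates were taken whole, so that sorting and group cannot be told apart there. TET enzymes oxidise methylated cytosine in DNA, the first step of its removal.

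A ribosome holds one copy of almost every ribosomal protein next to its ribosomal RNA, and the small subunit decodes the message while the large subunit joins the amino acids. The mRNAs of these proteins are among the most abundant of a growing cell, and most of them start with a cytosine followed by a run of pyrimidines (a TOP tract), through which mTORC1 and LARP1 control their translation. A few members have a variant copy elsewhere in the genome, often a retrogene without introns, whose expression is restricted to certain tissues: Rpl10l and Rpl39l are known from the male germ line and Rpl3l from heart and skeletal muscle.

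The start sites of members that show the TOP tract and of those that do not are given first, since this letter pattern is what the family is best known for. Each line holds 30 bases around a RefSeq start site (GRCm38.p6), 10 before it and 20 from it on, 5′ to 3′ on the gene's own strand, with the pyrimidine tract and its leading C in capitals where one covered the start.
Rpl38 (chr11:114668570-114668599, plus strand): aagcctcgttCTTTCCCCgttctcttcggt
Rps15a (chr7:118116128-118116157, minus strand): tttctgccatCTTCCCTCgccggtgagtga
Rps27 (chr3:90213629-90213658, minus strand): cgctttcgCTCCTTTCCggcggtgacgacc
Rps6 (chr4:86857348-86857377, minus strand): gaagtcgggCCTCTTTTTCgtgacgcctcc
Rpl10 (chrX:74270806-74270835, plus strand): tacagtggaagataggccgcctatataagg
Rpl10l (chr12:66284382-66284411, minus strand): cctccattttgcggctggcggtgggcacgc
Rpl39l (chr16:10170218-10170247, plus strand): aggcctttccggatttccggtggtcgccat
RefSeq start windows were matched for 64 of the 85 members, 76 windows of 300 bases in all, from 250 bases before the start to 50 after it. The base at the annotated start was a C followed by at least 4 pyrimidines in 14 of the 76 windows, 18.42% (95% Wilson interval 11.3 to 28.58). Over all genes this held for 822 of 32841 windows, 2.503%. A tract that began earlier and ran over the start was counted here only if the start base was itself such a C. Such a tract began within 5 bases of the start, on either side, in 42.11% of the members' windows and 18.34% of all windows. The core of the ETS factor motif, CCGGAAG on either strand, was present in 35.53% of the members' windows against 8.861% of all, and the core of the YY1 motif, AAGATGGC on either strand, in 10.53% against 2.747%. The windows overlap where a gene has several starts, and the letters describe the annotated starts and not binding or translation.

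Among the libraries, total counts ran from 11286050 to 41257861. Counts on the gene of the 45S precursor of ribosomal RNA (Rn45s) made up between 16.2 and 31.3% of a library in the 8 aggregate libraries without cytokines and between 31.7 and 47.6% in the other 10, so shares below are of the counts without it. Counts on this gene do not tell the precursor from mature ribosomal RNA left by the depletion. Tet1 was lower in TKO EpiLCs (737 and 967 normalised counts, which are counts divided by a size factor per library) than in WT EpiLCs (6227 and 6036), and Tet3 was lower in TKO than in WT day 6 cells without cytokines (252 and 237 against 5849 and 3466). On day 6 without cytokines Tet1 did not separate the genotypes (998 and 737 against 1304 and 595), and the counts cover the whole gene. The 7 neural markers summed to 29400 to 32916 normalised counts in WT day 6 cells without cytokines and to at most 5199 in any other library, and the 7 PGC markers summed to 20554 to 22366 in WT day 6 cells with cytokines, 626 to 1363 without, and 8797 to 16179 in the TKO aggregates. The 5 EpiLC markers summed to 55533 to 59755 in WT and 27047 to 27588 in TKO EpiLCs. Endoderm markers stayed at or below 538 and mesoderm markers at or below 1157 in every library, with Afp at 0 in 6 groups.

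As a share of all counts without Rn45s, the 85 members took 6.07% ± 0.06 (SD, n = 2 here and below) in WT EpiLCs and 5.67% ± 0.04 in TKO EpiLCs. On day 2 without cytokines the share was 5.41% ± 0.45 in WT and 4.79% ± 0.27 in TKO. TKO aggregates with cytokines on day 2 had the highest group mean, 6.88% ± 0.35, and their 2 libraries (6.64% and 7.13%) lay above both TKO libraries without cytokines (4.99% and 4.60%). On day 6 the share was 5.47% ± 0.45 in WT with cytokines, 5.49% ± 0.38 in TKO without and 5.89% ± 1.13 in TKO with cytokines. In bulk samples, fewer cells that make much of an mRNA and less of it per cell cannot be told apart.

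**Figure D1:**
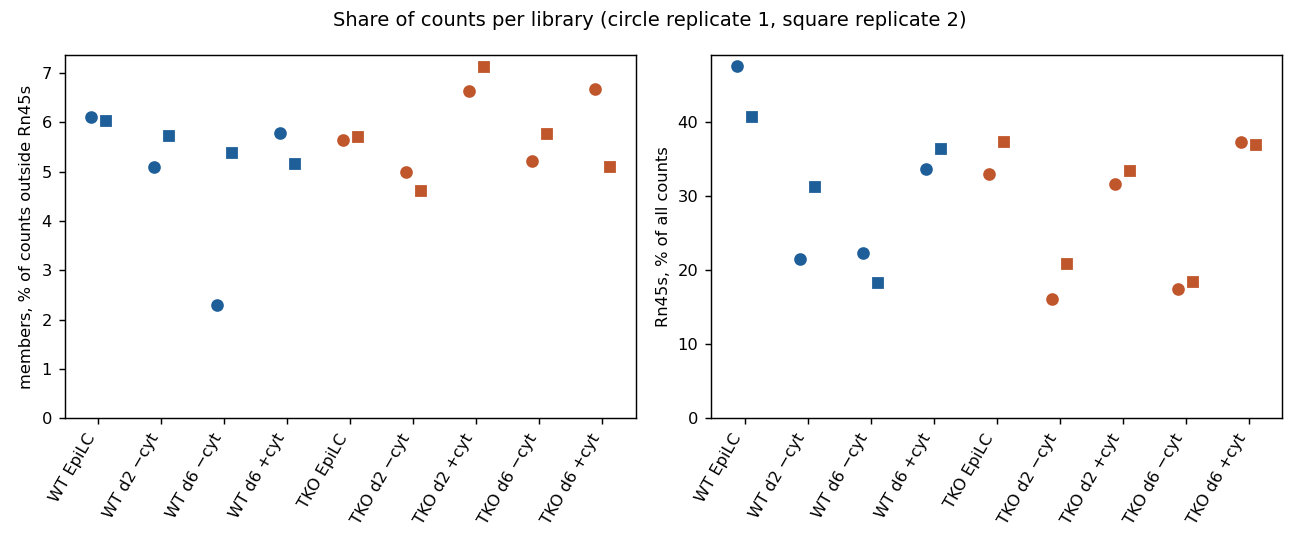
Share of counts per library, in percent, for the 9 groups, with circles for replicate 1 and squares for replicate 2; the plotted panels give the members' share of counts without Rn45s and the share of Rn45s itself. WT day 6 cells without cytokines are the group in which the members' share differed most between libraries, 2.31% against 5.37%.

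One library stood apart for these genes. In WT day 6 cells without cytokines the members took 2.31% of the counts in replicate 1 and 5.37% in replicate 2. The median log2 difference, replicate 1 minus replicate 2, was −1.17 over the 84 tested members and 0.08 over all tested genes, and 83 of the 84 members lay below that all-gene median. Large subunit genes (median −1.10) and small subunit genes (−1.24) were low together. The difference reached other translation genes: the median was −0.80 for the 78 mitochondrial ribosomal protein genes, −0.89 for 20 other mRNAs with a TOP tract such as elongation factors, and −0.50 and −0.51 for 44 small and 47 large subunit assembly factors. The 7 neural markers differed by a median of −0.09, with single genes between −1.26 and 1.46. Between these 2 libraries the marker sums ran from 843 to 1871 for EpiLC and from 626 to 1363 for PGC markers. They ran from 29400 to 32916 for neural, 91.1 to 102 for mesoderm and 9.26 to 73.9 for endoderm markers. The median coefficient of variation of the members was 55.2% in this group, against 28.3% for all genes there, and lay between 3.48% and 17.8% in the other 8 groups. Nothing in the labels sets this library apart, and what made it differ was not tested. The count of members called in each comparison is therefore given with all 18 libraries and without replicate 1 of this group, and because one model of the spread was shared by all groups, leaving it out also changed calls between other groups. The calls are edgeR quasi-likelihood tests with Benjamini-Hochberg adjustment over all genes tested (16582, or 17101 without the library), with an adjusted p below 0.05.

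**Figure D2:**
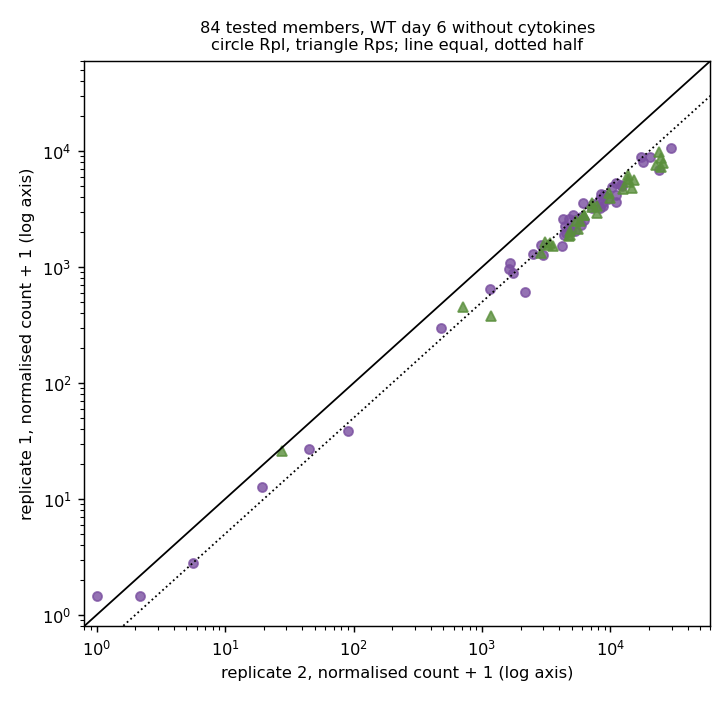
Normalised counts plus 1 of the 84 tested members in WT day 6 cells without cytokines, replicate 1 on the vertical and replicate 2 on the horizontal log axis, with circles for Rpl and triangles for Rps genes; the solid line marks equal values and the dotted line a level 1 log2 unit lower in replicate 1. Most members lie near or under the dotted line, with a median log2 difference of −1.17.

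Per kilobase of transcript, the mean normalised count over all libraries was highest for Rpl41, which encodes the shortest ribosomal protein (32597 per kb), followed by Rps14 (30192), Rps12 (27227), Rpl8 (27004) and Rps4x (26612). It was lowest for Rpl26 (5.36 per kb), Rpl3l (10.97), Rpl30 (79.7), Rps27 (138) and Rpl34 (230). In total normalised counts, not per length, the leading members were Rpl4 (28183), Rps2 (26483), Rps4x (25947), Rps3 (23695) and Rpl8 (22981). Ribosomal protein genes have many processed pseudogenes, and fragments that mapped to several places were not counted. For 83 members with a coding transcript, 75-base windows were called unique when found in no annotated transcript of another gene. Copies outside annotated transcripts were not searched. The median share of unique windows was 49.71%, and 19 members had less than 25%, Rps27 (1.48%) and Rpl10 (8.14%) among them. Over these 83 members the share of unique windows and the level per kb were nearly unrelated (Spearman's rho 0.04, a description over genes). Levels of single members are therefore uncertain where reads are shared with a copy, while differences between libraries compare the same countable windows.

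Across the 9 groups, 32 of the 84 members differed in at least 1 group, where 82.9% of all tested genes did. With replicate 1 of the WT day 6 group left out the count was 56, beside 84.4% of all genes, and without replicate 2 of its group 83, beside 85.8%. With all libraries the 11 pairwise comparisons called 47 members at least once and 37 in none of them. The same tally over all genes was not made, so 47 cannot be read as many or few. Single comparisons called up to 29.6% of all genes in 1 direction. By group mean, 37 members were highest in WT EpiLCs and 27 in TKO day 2 aggregates with cytokines, while 61 were lowest in WT day 6 cells without cytokines and 18 in TKO day 2 aggregates without. When replicate 2 alone stood for the WT day 6 cells without cytokines, 19 members were lowest there and 45 in TKO day 2 aggregates without cytokines, while 36 were highest in WT EpiLCs and 25 in TKO day 2 aggregates with cytokines. These positions in the order rest on 2 libraries a group and were not tested.

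The variant copies are described before the rest of the family. Rpl10l (chr12:66283379-66284401, minus strand) is an autosomal retrocopy of X-linked Rpl10, with 84.74% of its 642 coding bases identical, and 99.68% of its windows were unique. Rpl39l (chr16:10170197-10174911, plus strand) matches Rpl39 in 84.97% of 153 coding bases, and Rpl3l (chr17:24727826-24736143, plus strand) matches Rpl3 in 74.3% of 1206 aligned bases, both with 100% unique windows. Rps4l (chr6:148354656-148355596, plus strand) is annotated as a transcribed pseudogene, so reads shared with Rps4x make its level uncertain. The 170 bases from 150 before the start of these genes are shown because CpG dinucleotides, in capitals here, are the substrate of the TET pathway.
Rpl10l (chr12:66284382-66284551, minus strand, 7 CpG): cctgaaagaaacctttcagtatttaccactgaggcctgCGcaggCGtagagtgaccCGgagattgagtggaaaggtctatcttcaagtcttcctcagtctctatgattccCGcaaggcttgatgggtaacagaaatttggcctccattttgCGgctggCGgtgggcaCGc
Rpl39l (chr16:10170078-10170247, plus strand, 14 CpG): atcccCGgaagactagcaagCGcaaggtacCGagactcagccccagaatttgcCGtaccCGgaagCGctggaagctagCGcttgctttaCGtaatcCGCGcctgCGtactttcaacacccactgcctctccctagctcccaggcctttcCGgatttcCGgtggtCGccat
Rpl3l (chr17:24727676-24727845, plus strand, 1 CpG): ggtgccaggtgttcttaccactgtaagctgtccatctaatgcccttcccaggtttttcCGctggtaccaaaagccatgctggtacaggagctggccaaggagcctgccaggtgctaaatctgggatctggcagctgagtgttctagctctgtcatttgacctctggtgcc
Over the whole 300-base window Rpl10l held 13 CpG and Rpl39l 17, against a median of 21 in the windows of members that are no variant copy and 7 in all windows. Rpl3l held 2 in the window of the start shown and 3 in that of a further RefSeq start, not shown. DNA methylation was not measured in these libraries.

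Rpl10l, which stands in for Rpl10 in male germ cells, was at 1009 and 626 normalised counts in WT EpiLCs and fell to 12.7 and 9.32 on day 2 without cytokines (log2 fold change −6.16 ± 0.56 (SE), adjusted p = 1.98e-06). On day 6 it was at 1.81 and 4.63 without and at 451 and 421 with cytokines, a log2 difference of 7.33 ± 0.65 (adjusted p = 1.94e-07). In TKO cells it was at 288 and 743 in EpiLCs, 320 and 336 on day 2 and 553 and 844 on day 6 without cytokines, so the drop of the WT aggregates was not seen there. With cytokines the TKO aggregates held 437 and 986 on day 2 and 1922 and 1858 on day 6, the highest values of any group. TKO minus WT came to 4.87 ± 0.55 on day 2 (adjusted p = 1.21e-05), 7.99 ± 0.65 on day 6 without cytokines (adjusted p = 1.12e-07) and 2.11 ± 0.41 on day 6 with cytokines (adjusted p = 0.0025). In EpiLCs the genotypes overlapped.

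Rpl39l was at 496 and 345 normalised counts in WT EpiLCs, 5.85 and 2.33 on day 2 and 0.453 and 0 on day 6 without cytokines, and at 180 and 147 on day 6 with cytokines. The fall to day 2 was −6.64 ± 0.63 on the log2 scale (adjusted p = 2.84e-06). The day 6 libraries without cytokines held 0 or 1 counts, so only bounds can be given there, set at 3 counts per library: the level was at least 67.6-fold higher with cytokines (adjusted p = 4.56e-07). TKO EpiLCs had less Rpl39l than WT EpiLCs, 29.8 and 100 (log2 fold change −2.66 ± 0.47, adjusted p = 0.00259), which made it the member called lower in that comparison. In TKO aggregates it was at 33.2 and 40.9 on day 2 and 197 and 217 on day 6 without cytokines, and at 17 and 39.7 on day 2 and 430 and 316 on day 6 with them. TKO exceeded WT by 3.16 ± 0.66 on day 2 (adjusted p = 0.00204) and at least 85.7-fold on day 6 without cytokines (adjusted p = 4.32e-07). The rise in TKO from day 2 to day 6 without cytokines was 2.49 ± 0.48 (adjusted p = 0.0324), and with cytokines on day 6 the difference of 1.18 ± 0.43 between the genotypes did not pass (adjusted p = 0.0695), although both TKO libraries lay above both WT libraries.

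Rps4l was also lowest in WT day 6 cells without cytokines, with a smaller span. WT EpiLCs held 7366 and 6240 normalised counts, WT aggregates without cytokines 1569 and 2534 on day 2 and 450 and 715 on day 6, and WT day 6 cells with cytokines 4951 and 4418. Both steps without cytokines were called lower (−1.67 ± 0.25, adjusted p = 0.000146, then −1.87 ± 0.25, adjusted p = 4.2e-05), and the level with cytokines was higher by 3.05 ± 0.26 (adjusted p = 1.52e-07). The 10 TKO libraries lay between 3259 and 5915, above WT without cytokines on day 2 (0.82 ± 0.25, adjusted p = 0.0183) and day 6 (2.71 ± 0.26, adjusted p = 6.58e-07). Rps4x, the X-linked gene it derives from, was not called in any of these comparisons. Rpl3l, the muscle form of Rpl3, stayed low everywhere and was highest in day 6 cells with cytokines, 49.4 and 47 in WT and 42 and 26.4 in TKO. WT day 6 libraries without cytokines held 1 count each, which gives a level at least 19.9-fold higher with cytokines in WT (adjusted p = 9.92e-06) and at least 5.65-fold higher in TKO without cytokines (17.2 and 10.1, adjusted p = 0.000628). Rpl32l (chr10:20208439-20209030, plus strand), a copy that one annotation lists as coding and another as a processed pseudogene, had at most 26 counts in a library. It was called higher in TKO on day 2 (2.35 ± 0.82, adjusted p = 0.0385) and in WT from day 2 to day 6 (2.68 ± 0.79, adjusted p = 0.0138), both against WT day 2 libraries at 0.975 and 3.11. Leaving out the library that stood apart kept the calls of Rpl10l, Rpl39l, Rps4l and Rpl3l for TKO against WT on day 6 without cytokines and for cytokines in WT, with values of 7.21 ± 0.86 and 6.56 ± 0.87 for Rpl10l and 2.40 ± 0.28 and 2.75 ± 0.29 for Rps4l. The difference in Rpl39l between the genotypes on day 6 with cytokines then passed (adjusted p = 0.0355).

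**Figure D3:**
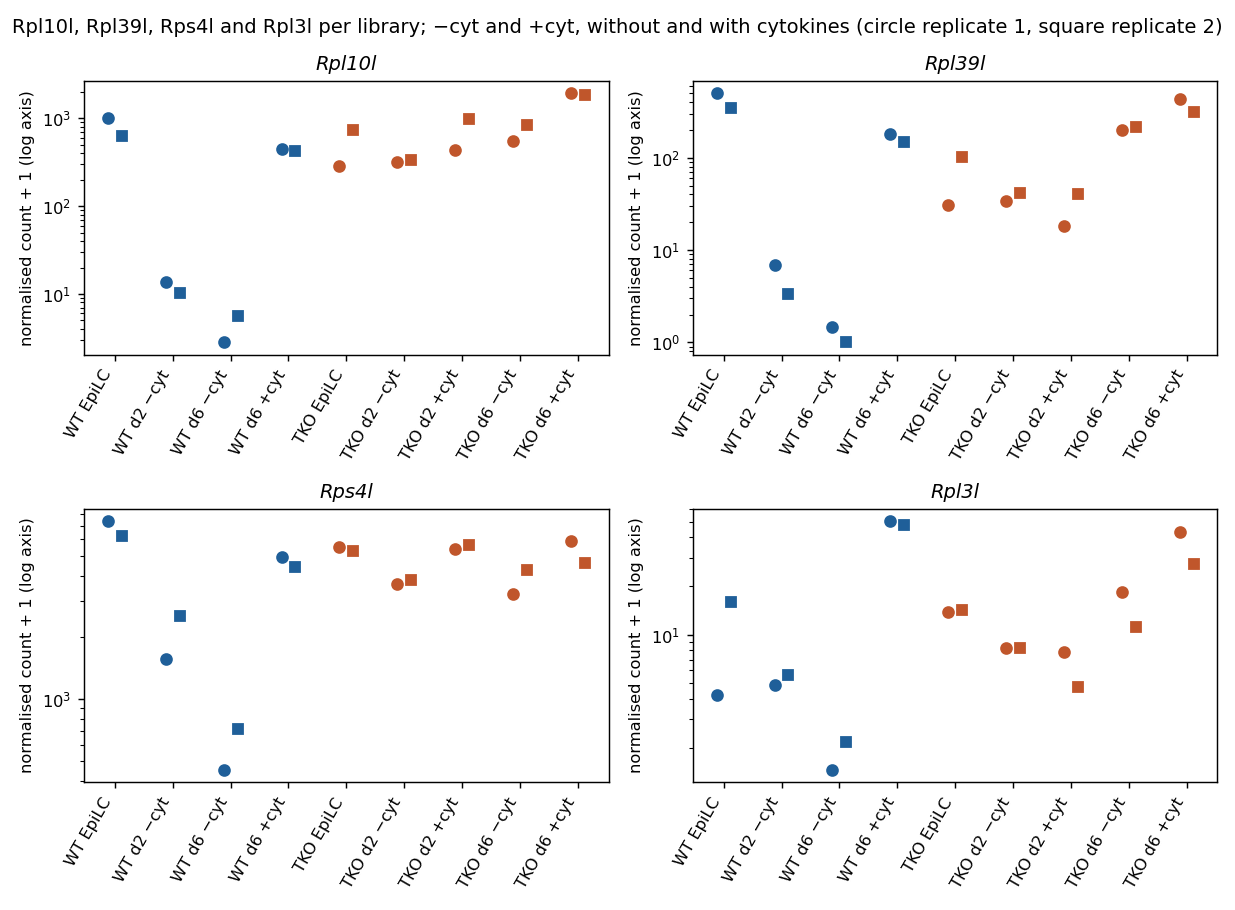
Normalised counts plus 1, on a log axis, of Rpl10l, Rpl39l, Rps4l and Rpl3l in each of the 18 libraries by group, with circles for replicate 1 and squares for replicate 2. Each gene is lowest in WT day 6 cells without cytokines, where Rpl39l had 0.453 and 0 normalised counts, and the TKO groups without cytokines lie above it.

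The variant copies moved beside the germ cell and neural markers, whose sums are given above: WT aggregates without cytokines had the high neural and low PGC sums, and WT cells with cytokines and all TKO aggregates had the high PGC sums. The part of cell composition in the levels of the copies was not tested. WT EpiLCs had high Rpl10l, Rpl39l and Rps4l with a PGC sum of 653 to 683. Among related genes with wider expression, Rps27l and Rpl7l1 were also lowest by group mean in WT day 6 cells without cytokines, and Rpl22l1 was not. Rps27l, a p53 target related to Rps27 (76.19% identical), was at 376 and 1166 in WT day 6 cells without cytokines and between 1083 and 3334 in all other libraries, fell from day 2 to day 6 in WT (−1.52 ± 0.42, adjusted p = 0.00984) and was called higher in TKO there (1.55 ± 0.42, adjusted p = 0.00584). With the library left out, the fall of Rps27l did not pass (adjusted p = 0.0636) and the difference between the genotypes did (0.94 ± 0.36, adjusted p = 0.0386). Rpl22l1, related to Rpl22 (70.22% identical), was at 613 and 2149 in the same WT group and 843 and 880 in TKO (−0.66 ± 0.47, adjusted p = 0.253), and it was called lower in TKO without replicate 1 (−1.31 ± 0.39, adjusted p = 0.0103). Rpl7l1, a nucleolar relative of Rpl7, fell in WT from day 2 to day 6 without cytokines (−0.77 ± 0.19, adjusted p = 0.00631), from 2186 and 2337 to 1077 and 1664. It was higher there in TKO (0.75 ± 0.20, adjusted p = 0.005) and with cytokines in WT (0.72 ± 0.20, adjusted p = 0.00588). None of these 3 calls of Rpl7l1 passed with the library left out, at adjusted p of 0.0634, 0.0547 and 0.0657.

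The 4 members on the X chromosome were considered as a group because 3 of them led the non-variant members in the comparison of the genotypes in EpiLCs and on day 6 with cytokines. Rpl10, which completes the catalytic side of the large subunit, was at 7218 and 7162 normalised counts in WT and 14798 and 12035 in TKO EpiLCs, groups that did not overlap (0.93 ± 0.29, adjusted p = 0.051 with all libraries and 0.00318 without the library that stood apart). On day 2 without cytokines it was at 5189 and 5947 against 8607 and 8690, a difference that did not pass (0.60 ± 0.29, adjusted p = 0.12). On day 6 it was at 2709 and 5930 against 8007 and 9545 without cytokines (1.04 ± 0.29, adjusted p = 0.00649) and at 5308 and 4510 against 11745 and 8110 with cytokines (1.01 ± 0.29, adjusted p = 0.0237). Every TKO library thus lay above the highest WT library, 8007 against 7218. Rpl10 was taken up for its differences in these same libraries, so this is no separate support. The share of all genes that separate the genotypes in this way was not counted. The unique share of Rpl10 windows was 8.14%, so this rests on few countable positions.

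Rps4x, a small subunit protein, was at 27023 and 26252 in WT and 30945 and 42568 in TKO EpiLCs (0.50 ± 0.33, adjusted p = 0.376). On day 6 with cytokines it was at 16994 and 14274 against 42546 and 33109 (1.27 ± 0.34, adjusted p = 0.0168). Rpl36a, of the large subunit, was at 2847 and 2564 against 6398 and 5635 on day 6 with cytokines (1.15 ± 0.31, adjusted p = 0.0192) and at 1548 and 2886 against 4535 and 6179 without (1.29 ± 0.32, adjusted p = 0.00278). Rpl39, which lies in the exit tunnel of the large subunit, did not go the same way: it was at 2384 and 2450 against 2226 and 1729 on day 6 with cytokines (−0.29 ± 0.29, adjusted p = 0.517) and at 880 and 1725 against 2048 and 2807 without (0.92 ± 0.29, adjusted p = 0.0138). When the library that stood apart was left out, the differences without cytokines on day 6 were 0.58 ± 0.23 for Rpl10 (adjusted p = 0.0493), 0.90 ± 0.32 for Rpl36a (adjusted p = 0.0269), −0.05 ± 0.28 for Rps4x and 0.50 ± 0.27 for Rpl39 (adjusted p = 0.13), and Rpl39 was called lower in TKO on day 2 (−0.77 ± 0.22, adjusted p = 0.0102). The autosomal copy of Rpl36a, Rpl36al, was at 889 and 792 against 1031 and 772 on day 6 with cytokines.

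By the median, the other genes of the X chromosome were higher in TKO too. Over 616 other X-linked genes tested, the median log2 fold change, TKO minus WT, was 0.56 in EpiLCs, 0.38 on day 2, 0.53 on day 6 without and 0.57 with cytokines, against all-gene medians of 0.04, 0.00, 0.01 and 0.05. Between 60.1% and 70.5% of these genes lay above the all-gene median in each comparison. In the same order, 154, 195, 273 and 178 of them were called higher and 17, 77, 121 and 26 lower. Of all genes, 7.57%, 18%, 28.5% and 11.3% were called higher and 3.18%, 14.8%, 26.9% and 7.53% lower. The genes within 5 Mb of a member gave medians in EpiLCs of 0.84 around Rps4x (71 genes), 0.83 around Rpl10 (82), 0.85 around Rpl36a (62) and −0.13 around Rpl39 (33). On day 2 these medians were 0.90, 0.57, 0.10 and −0.03, and on day 6 without cytokines 0.67, 0.63, 0.56 and 0.07. On day 6 with cytokines the same medians were 0.69, 0.53, 1.13 and −0.13. Each X-linked member had the sign of that median on day 6 with cytokines. In EpiLCs Rpl39 was at 0.08 ± 0.29, opposite in sign to the genes around it, and on day 6 without cytokines it was called at 0.92 where the genes around it had a median of 0.07. Whether the X-linked members changed with their chromosome was not tested, and with a single TKO clone a change of the clone and the loss of TET cannot be told apart.

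**Figure D4:**
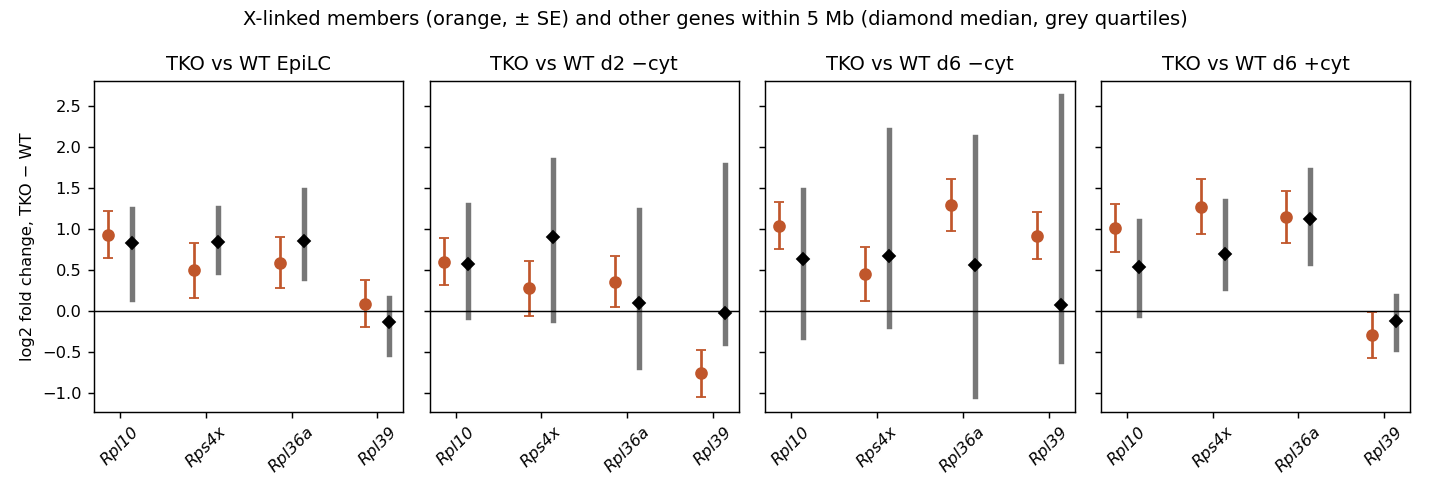
Log2 fold change, TKO minus WT, of the 4 X-linked members (orange, ± SE) beside the other tested genes within 5 Mb (diamonds for medians, grey bars for quartiles), in one panel per comparison of the genotypes. In EpiLCs and on day 6 with cytokines, the medians around Rps4x, Rpl10 and Rpl36a lie above 0 and that around Rpl39 at −0.13.

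The first comparison of the genotypes was that of the EpiLCs, the state before the aggregates were made. Of the 84 members none was called higher and 1 lower (Rpl39l), where 7.57% of all tested genes were called higher and 3.18% lower. The study's own limit also asks that the log2 fold change exceed 2 or lie under −2, and 1 member, Rpl39l, met it, as did 2.31% of all genes. The members' median was −0.21 and the all-gene median 0.04, with 12 of 84 members above the latter. Rpl13a, a core large subunit protein (−0.86 ± 0.37, adjusted p = 0.151), and Rpl34 (−0.79 ± 0.36, adjusted p = 0.177) followed Rpl39l at the low end. At an unadjusted p below 0.05, 1 member was higher and 4 lower, beside 16% and 9.95% of all genes, and DESeq2 called 1 and 1. When libraries were scaled only by their total, which leaves the difference in Rn45s in place, 2 were higher and 1 lower, and by their total without Rn45s 1 and 1. Without replicate 1 of the WT day 6 group, Rpl10 was called higher and Rpl13a and Rpl39l lower, beside 11% and 5.91% of all genes, and leaving out any single library gave 1 to 3 members.

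On day 2 without cytokines, 4 members were higher in TKO, all of them copies (Rpl10l, Rpl39l, Rpl32l and Rps4l), and none lower, where 18% of all genes were higher and 14.8% lower. The members called beyond a log2 fold change of 2 were 3, where 12.5% of all genes were. The members' median was −0.21. Rpl22l1 (−1.19 ± 0.48, adjusted p = 0.067), Rps2, a small subunit protein near the decoding centre (−0.96 ± 0.41, adjusted p = 0.0821), and Rps14 (−0.89 ± 0.43, adjusted p = 0.126) were lowest and did not pass. DESeq2 called 4 higher and 3 lower, and at an unadjusted p below 0.05 there were 4 and 7, beside 22.9% and 20.5% of all genes. Without the library that stood apart, the 4 copies and Rpl10 were called higher and 13 members lower, Rps2, Rps14, Rpl13a, Rpl38, Rpl41 and Rpl22l1 among them, beside 20.5% and 18.8% of all genes, and over all single libraries left out the count ran from 2, without replicate 1 of WT day 2, to 18.

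On day 6 without cytokines, where WT aggregates carried neural markers and TKO aggregates PGC markers, 27 members were called higher in TKO and none lower, where 28.5% of all genes were higher and 26.9% lower. At a log2 fold change beyond 2 the members were Rpl10l, Rpl39l, Rpl3l and Rps4l, 4 in all, where 23.8% of all genes passed. The median of the members was 0.42, and 72 of 84 lay above the all-gene median of 0.01. Beside the copies, the largest differences were in Rpl29, a heparin-binding large subunit protein (296 and 475 in WT, 1067 and 1276 in TKO, 1.63 ± 0.25, adjusted p = 6.96e-05), Rpl4 (8916 and 17252 against 32028 and 33744, 1.35 ± 0.25, adjusted p = 0.000336) and Rpl31 (952 and 1628 against 2880 and 3392, 1.30 ± 0.25, adjusted p = 0.000412). In these genes the WT and TKO libraries did not overlap. They were picked for their differences in the same libraries, so this is no separate support.

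The library that stood apart carried much of that count. Without it, 14 members were higher and 7 lower in TKO, beside 26.7% and 24.3% of all genes, and the members' median was −0.07. The 14 were all among the 27, and Rpl10, Rpl10l, Rpl17, Rpl24, Rpl29, Rpl31, Rpl36a, Rpl39l, Rpl3l, Rpl4, Rps25, Rps27l and Rps4l were among them. The 7 called lower were Rpl22l1, Rpl37a, Rpl38, Rpl41, Rps14, Rps2 and Rps28. Without replicate 2 of that WT group instead, the members' median was 1.17, beside an all-gene median of 0.06. The direction of the family as a whole in this comparison thus depended on which WT library was used, while those 14 members were called higher with both libraries and without replicate 1.

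On day 6 with cytokines, sorted WT cells were set against whole TKO aggregates, and 4 members were called higher (Rpl10l, Rps4x, Rpl36a and Rpl10) and none lower, where 11.3% of all genes were higher and 7.53% lower. Beyond a log2 fold change of 2 the member was Rpl10l, 1 in all, where 5.57% of all genes passed. Apart from Rpl10l the called members were X-linked. The median of the members was −0.03. Among the lowest were Rps29 (−0.56 ± 0.32, adjusted p = 0.246) and Rps28 (−0.47 ± 0.29, adjusted p = 0.289). At an unadjusted p below 0.05, 6 members were higher and 1 lower, beside 18.5% and 13.9% of all genes, and DESeq2 called as many members. Without the library that stood apart, which is in neither group, 7 were higher (Rpl11, Rpl39l and Rps2 in addition) and 2 lower, Rps28 among them, beside 15.4% and 10.7% of all genes, and without replicate 1 of the WT cells with cytokines 1 member was called.

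From EpiLCs to day 2 without cytokines, 5 members fell in WT cells and none rose, where 18.6% of all genes rose and 15.7% fell. Besides Rpl39l, Rpl10l and Rps4l these were Rpl30 (108 and 104 to 19.5 and 47.4, −1.59 ± 0.49, adjusted p = 0.0209) and Rpl6 (16222 and 15946 to 6422 and 10162, −0.90 ± 0.30, adjusted p = 0.0287), both of the large subunit. At a log2 fold change beyond 2 the members were 2, Rpl39l and Rpl10l, where 11.5% of all genes passed. The median of the members was −0.30, with 6 of 84 above the all-gene median of 0.02. At the high end Rpl39 (0.53 ± 0.29, adjusted p = 0.168) did not pass, and DESeq2 called 0 higher and 7 lower. At an unadjusted p below 0.05, no member was higher and 10 were lower, beside 23.7% and 20.7% of all genes. Scaled by total counts, 2 rose and 3 fell. Without the library that stood apart, 17 members fell, Rpl11, Rpl38, Rps4x, Rps6 and Rpsa among them, and none rose, beside 19% and 21.4% of all genes, and without replicate 1 of the WT EpiLCs 3 were called.

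From day 2 to day 6 without cytokines in WT, 14 members fell and Rpl32l alone rose, where 19% of all genes fell and 20.5% rose. Beyond a log2 fold change of 2 were Rpl3l and Rpl32l, 2 in all, where 14.5% of all genes passed. With the day 6 libraries at 1 count, the fall of Rpl3l was at least 1.77-fold (adjusted p = 0.039) and that of Rpl39l at least 1.69-fold (adjusted p = 0.0548), and Rpl10l changed by −2.03 ± 0.88 (adjusted p = 0.0823). Rpl29 went from 1000 and 736 to 296 and 475 (−1.22 ± 0.25, adjusted p = 0.00125), and Rpl39 from 3685 and 2132 to 880 and 1725 (−1.20 ± 0.29, adjusted p = 0.00405). Rps4x (−0.07 ± 0.33), Rps24 (−0.03 ± 0.30) and Rpl37a (0.04 ± 0.36) were at the other end. The median of the members was −0.51, with 2 of 84 above the all-gene median. Without replicate 1 of day 6, Rpl27, Rpl29, Rpl31, Rpl39, Rpl4 and Rps4l fell and Rpl32l rose, beside 15.9% and 15.6% of all genes, with a median of −0.04. Without replicate 2 of day 6 instead, the members' median was −1.24. Without replicate 1 of WT day 2, 5 members were called.

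In WT cells on day 6, cytokines and the sort together set 30 members higher and none lower, where 29.6% of all genes were higher and 28.6% lower. Beyond a log2 fold change of 2 were 4 members, Rpl10l, Rpl39l, Rpl3l and Rps4l, where 26.7% of all genes passed. Rpl4 (8916 and 17252 without, 33355 and 28972 with cytokines, 1.29 ± 0.25, adjusted p = 0.000403) and Rpl12, a protein of the large subunit stalk (3354 and 8725 against 14291 and 13020.3, 1.22 ± 0.32, adjusted p = 0.0044), led the others. Rpl11, part of the complex that binds Mdm2 when ribosome assembly is disturbed (−0.27 ± 0.32), Rpl41 (−0.26 ± 0.39) and Rps14 (−0.14 ± 0.42) were at the low end. The median was 0.55, and 75 of 84 members lay above the all-gene median of 0.01. Scaled by total counts, 7 were higher. Without the library that stood apart, 7 members were higher (Rpl10l, Rpl39l, Rpl3l, Rps4l, Rpl4, Rpl12 and Rpl27) and 4 lower (Rpl11, Rpl38, Rpl41 and Rps7), beside 26.9% and 26% of all genes, with a median of 0.07. Without replicate 2 of its group instead, the members' median was 1.30.

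**Figure D5:**
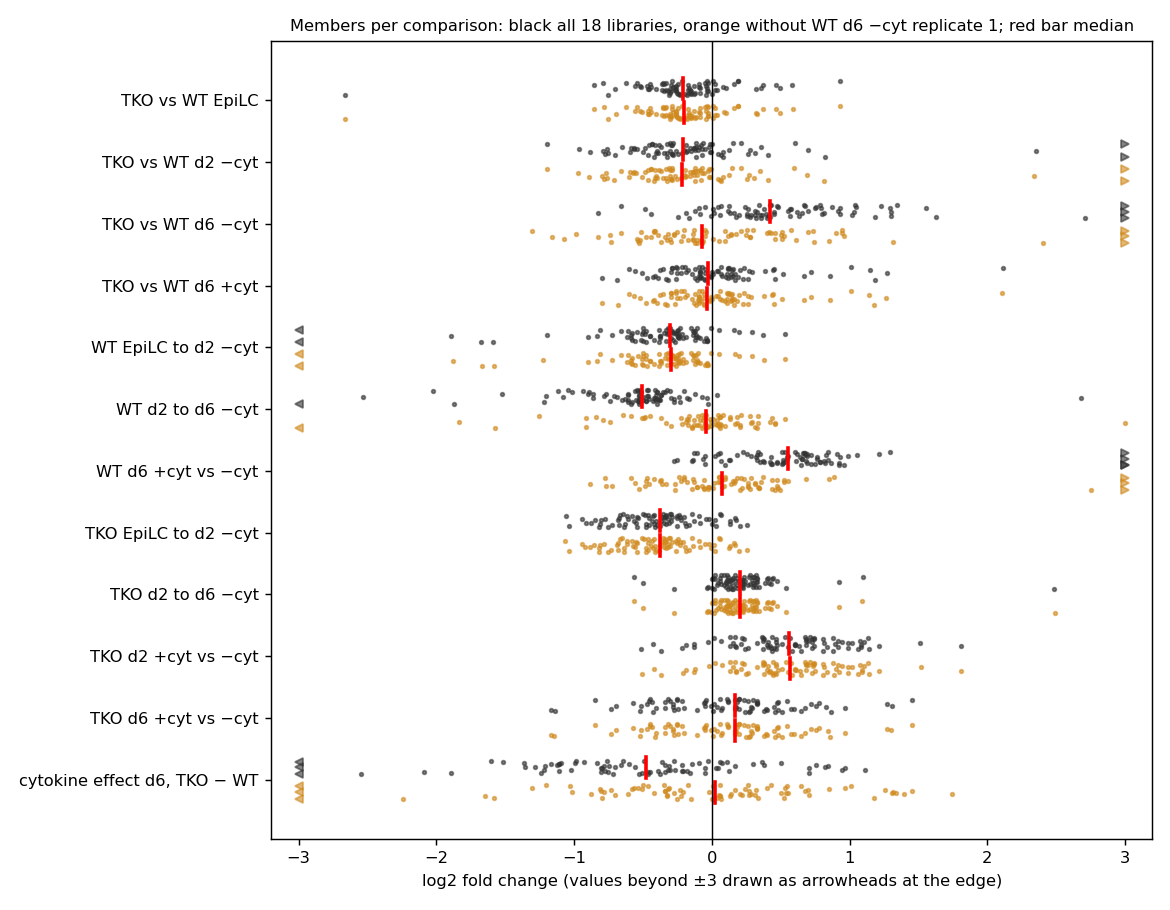
Log2 fold change of the members in each comparison, in black with all 18 libraries and in orange without replicate 1 of the WT day 6 group without cytokines, with red bars for medians; values beyond ±3 are drawn at the edge. The medians of the comparisons with that group move towards 0 in orange, from 0.42 to −0.07 for TKO against WT on day 6 and from 0.55 to 0.07 for cytokines in WT.

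In TKO cells from EpiLCs to day 2 without cytokines, 2 members fell and none rose, where 8.52% of all genes fell and 10.1% rose. These were Rpl38, whose loss in mice disturbs the translation of Hox mRNAs (4304 and 4958 to 2348 and 2213, −1.03 ± 0.29, adjusted p = 0.0236), and Rps27 (71.4 and 89.1 to 43.6 and 33.6, −1.06 ± 0.33, adjusted p = 0.0349), counted on few unique windows. Neither was beyond a log2 fold change of 2, where 5.31% of all genes passed. The median was −0.37 and 8 of 84 members lay above the all-gene median of 0.04. At an unadjusted p below 0.05, 14 members fell and 0 rose, where 16% of all genes fell and 17.8% rose. The count that fell was thus near the share of all genes. Scaled by total counts, none was called. Without the WT day 6 library, 20 members fell, Rps2, Rps14, Rpl11, Rpl10 and Rps4x among them, and none rose, beside 13.5% and 13.9% of all genes, and without replicate 2 of the TKO EpiLCs 0 were called. From day 2 to day 6 without cytokines, TKO aggregates changed little: Rpl39l rose, 1 member in all, and none fell, where 0.422% of all genes rose and 0.0543% fell, and with a log2 fold change beyond 2 it was 1 member where 0.338% of all genes passed. Rpl10l (1.09 ± 0.41, adjusted p = 0.388) and Rpl17 (0.54 ± 0.28, adjusted p = 0.623) came next, and Rpl34 was lowest (−0.56 ± 0.38, adjusted p = 0.766). When the library that stood apart was dropped, Rpl39l again was the member called (2.49 ± 0.45, adjusted p = 0.0104), beside 0.895% and 0.281% of all genes. That call was lost without either library of the WT EpiLCs, of TKO day 2 or day 6 without cytokines or of TKO day 6 with cytokines, 8 in all, with a log2 fold change between 2.35 and 2.63.

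In TKO aggregates on day 2, cytokines raised 4 members and lowered none, where 2.05% of all genes were higher and 2.47% lower. Rps14, a small subunit protein near the platform of the subunit, was at 9377 and 9761 without and 39487 and 26780 with cytokines (1.81 ± 0.44, adjusted p = 0.0323). Rps2 went from 14642 and 14847 to 48444 and 34840 (1.51 ± 0.41, adjusted p = 0.0497), Rpl11 from 4865 and 4842 to 12298 and 9936 (1.21 ± 0.32, adjusted p = 0.0468) and Rpl38 from 2348 and 2213 to 4259 and 5689 (1.14 ± 0.29, adjusted p = 0.0386). The libraries with and without cytokines did not overlap in any of the 4. They were picked by the test on these same libraries, so this is no separate support. None was beyond a log2 fold change of 2, where 1.58% of all genes passed. The median of the members was 0.56, and 77 of 84 lay above the all-gene median of −0.03. At an unadjusted p below 0.05, 34 members were higher and none lower, where 12% of all genes were higher, and DESeq2 called 15 higher. Scaled by total counts there were 1 higher and 1 lower, and by the total without Rn45s 1 higher. Without the WT day 6 library, which is in neither group, 35 members were higher and none lower, beside 7.54% and 6.25% of all genes, with the same median of 0.56. The count was this sensitive to other libraries too, and without replicate 1 of TKO day 2 without cytokines 0 were called.

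On day 6, cytokines in TKO aggregates set 1 member, Rpl10l, higher and 2 lower, Rpl29 among them, where 2.56% and 3.05% of all genes were called. Rpl29 was at 1067 and 1276 without and 566 and 484 with cytokines (−1.14 ± 0.25, adjusted p = 0.0168). Rpl10l was higher by 1.45 ± 0.40 (adjusted p = 0.0474). None was beyond a log2 fold change of 2, where 1.86% of all genes passed. Rps2 (13152 and 17521 against 46337 and 26977, 1.28 ± 0.41, adjusted p = 0.0798) and Rps14 (0.97 ± 0.43, adjusted p = 0.193) did not pass. The members' median was 0.17. Scaled by total counts there were 0 higher and 17 lower, by the total without Rn45s 0 and 3, with DESeq2's size factors in edgeR 0 and 2, and in DESeq2 itself 2 and 3. Rpl10l was at 0.95 ± 0.36 (adjusted p = 0.074), 1.33 ± 0.39 (0.0564), 1.44 ± 0.40 (0.0501) and 1.44 ± 0.42 (0.0133) in these, so its call lay close to the threshold. Without the WT day 6 library, Rpl10l, Rpl18, Rpl38, Rps14, Rps2, Rps4x and Rpsa were higher and 5 members lower, Rpl24, Rpl29, Rpl31 and Rps25 among them, beside 6.7% and 5.91% of all genes, and without replicate 1 of TKO day 6 without cytokines 0 were called.

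The effect of cytokines on day 6 was then compared between the genotypes, as the TKO difference minus the WT difference. This interaction was negative for 18 members and positive for none, where 22% of all genes were negative and 21% positive. Apart from Rpl39l and Rpl3l, which had at most 1 count in the WT libraries without cytokines, the largest included Rpl10l (−5.88 ± 0.79, adjusted p = 3.1e-05), Rps4l (−2.55 ± 0.35, adjusted p = 4.21e-05), Rpl29 (−1.89 ± 0.35, adjusted p = 0.000566) and Rpl4 (−1.61 ± 0.35, adjusted p = 0.00182). For Rpl29 the directions differed, higher with cytokines in WT (0.75 ± 0.25, adjusted p = 0.0171) and lower in TKO. Without the library that stood apart, the WT difference of Rpl29 was smaller, 0.44, with replicate 2 alone for the cells without cytokines. Rps14 (1.11 ± 0.60, adjusted p = 0.15), Rpl11 (0.95 ± 0.45, adjusted p = 0.105) and Rps2 (0.84 ± 0.57, adjusted p = 0.251) were at the high end. At an unadjusted p below 0.05, 24 members were negative and 0 positive, beside 25.7% and 25% of all genes, and DESeq2 called 20 and 0. Without the library that stood apart 14 of the 18 stayed negative and 8 members were positive, beside 22.1% and 20.7% of all genes. The 8 were Rpl11, Rpl37a, Rpl38, Rpl41, Rpl7, Rps14, Rps2 and Rps4x. Without replicate 2 of that WT group instead, the members' median was −1.27.

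The genes that build ribosomes were described beside the proteins themselves. In WT cells the assembly factors of both subunits fell at each step without cytokines: of 44 small subunit factors 33 fell and none rose from EpiLCs to day 2 and 38 fell from day 2 to day 6, and of 47 large subunit factors 34 and 35 fell, where 15.7% and then 19% of all genes did. Examples from EpiLCs to day 2 were Rrp9 (−1.45 ± 0.28), a box C/D snoRNP protein, and Nop2 (−1.35 ± 0.27), a ribosomal RNA methyltransferase. From day 2 to day 6 Utp20 (−1.83 ± 0.24) and Mdn1 (−1.63 ± 0.22), an assembly ATPase, were lowest. Of the 8 nucleolar core genes, Npm1, Dkc1, Gar1 and Tcof1 among them, 7 and then 8 fell. After replicate 1 of the WT day 6 group was left out, 40 small and 37 large subunit factors fell from EpiLCs to day 2, beside 19% of all genes, and 24 small and 24 large subunit factors and 7 core genes still fell from day 2 to day 6, beside 15.9% of all genes, while 6 of the 84 ribosomal protein genes did.

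In TKO cells from EpiLCs to day 2, 5 small subunit factors, 8 large subunit factors and 2 core genes fell, where 8.52% of all genes did, and 13, 23 and 4 without the library that stood apart, beside 13.5%. TKO cells on day 6 without cytokines exceeded WT in 26 small and 24 large subunit factors and were below it in 1 of each, with all 8 core genes higher, where 28.5% of all genes were higher and 26.9% lower. With the library left out the counts were 19, 16 and 7 higher, beside 26.7% of all genes. Las1l, an X-linked factor for the processing of ribosomal RNA, was higher by 1.69 ± 0.14 and Utp20 by 1.53 ± 0.23. In EpiLCs Nop56, a core snoRNP protein, was lower in TKO by 1.75 on the log2 scale. The RNA polymerase I list (15 genes) gave 7 lower in WT from EpiLCs to day 2, 6 lower from day 2 to day 6 and 7 higher in TKO on day 6 without cytokines, where the shares of all genes were 15.7%, 19% and 28.5%, and with the library left out the counts were 9, 3 and 3, beside 19%, 15.9% and 26.7%. Among the 20 other TOP mRNAs the same counts were 5, 7 and 9 with all libraries and 7, 3 and 4 with that one left out, with Pabpc1, the poly(A)-binding protein (1.90 ± 0.19), and Npm1 (1.43 ± 0.22) highest in TKO on day 6, and 1 lower, Eif3f (−0.69 ± 0.20).

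The mitochondrial ribosome is built from other genes, and its 78 tested members gave a comparison family. In WT 19 fell from EpiLCs to day 2 and 11 from day 2 to day 6, and in TKO 26 fell from EpiLCs to day 2, where 15.7%, 19% and 8.52% of all genes did. With the library left out 33, 1 and 44 fell, beside 19%, 15.9% and 13.5%. On day 6 without cytokines TKO exceeded WT in 6 and was below it in 13, where 28.5% of all genes were higher and 26.9% lower, and without the library that stood apart in 3 and 37, beside 26.7% and 24.3%. With cytokines on day 2, TKO aggregates had 5 of them higher and none lower, beside 2.05% of all genes higher (32 and 0 without that library, beside 7.54%), with a median of 0.56, the value of the cytosolic family as well. The regulators of TOP mRNA translation (mTORC1 and LARP genes, 16 tested) had none called in TKO EpiLCs, 5 higher and 5 lower in TKO on day 6 without cytokines and 7 higher and 2 lower with cytokines in WT, where 29.6% of all genes were higher and 28.6% lower. Counts of 5 among 16 are near the shares of all genes in that comparison of the genotypes. The list joins Mtor, Rptor and Rheb with Tsc1, Tsc2 and Eif4ebp1, genes of differing roles, so its counts give no direction of TOP mRNA translation. Of 20 p53 targets 12 were higher and 1 lower in TKO on day 6 without cytokines, and 6 were higher in TKO EpiLCs, with none lower, where 28.5% and 7.57% of all genes were higher. With the library left out, 9 of 21 were higher and 1 lower on day 6 and 6 higher in EpiLCs, beside 26.7% and 11% of all genes. The MYC family (8 genes) had 1 higher and 4 lower, and 2 of the 6 tested members that bind Mdm2 were higher, on day 6 without cytokines, where 28.5% of all genes were higher and 26.9% lower, and with the library left out the counts were 1 and 4 for MYC and 1 higher and 1 lower for the Mdm2 binders. The MYC list joins Myc, Mycn, Mycl and Max with Mxd1, Mxd3, Mxd4 and Mnt, genes of differing roles, so its counts give no direction of MYC activity. Fau, which encodes a ribosomal protein fused to a ubiquitin-like protein and which the choice by symbol leaves out, was at 4244 and 8327 normalised counts in WT day 6 cells without cytokines, lower in replicate 1 like the members, and at 11422 and 9791 in WT EpiLCs.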

How the data were processed

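RNA-seq of 18 libraries was analysed. Per the file headers and the study's methods, the counts deposited by the authors are fragments per gene (featureCounts, Subread 1.5.2, exons of mm10 refGene) from reads trimmed with Trim Galore 0.5.0 and aligned with STAR 2.7.1a; multi-mapping fragments were left out and strand was not used. Of 25272 rows, 33 were command lines without values. No count was altered. edgeR 4.0.16 in R 4.3.3 was run with TMM factors, filterByExpr by group, and quasi-likelihood F tests in one model of 9 group means, with Benjamini-Hochberg adjustment over all genes tested; SE is the log2 fold change divided by the root of F. Normalised counts are counts divided by DESeq2 1.42.0 size factors. Bounds use 3 counts per library. The study's figure legends for this RNA-seq call the 2 libraries of a group biological replicates. Neither they nor the labels say how the replicates were made, so p-values measure the spread between libraries. Members and lists were chosen with earlier results of these data known. Named genes are the variant copies with their parents, X-linked members, the 3 highest and 3 lowest log2 fold changes per comparison among members with a mean of at least 50, the 5 of highest mean and the extremes of each list; other members were named after their values were seen. Alternatives are given in the closing section. Start-site sequences are RefSeq (GRCm38.p6). The method was tested on simulated data. Some results of single genes are not reported here.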

Additional observations from a re-analysis of the deposited data

Results flagged for a closer look

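The effect of cytokines on day 6 differed between the genotypes in 18 members by a test of the interaction (edgeR quasi-likelihood, Benjamini-Hochberg adjustment), each with a lower value in TKO than in WT. These were 21.4% of the members, where 22% of all genes were negative and 21% positive, so the share of members was near that of all genes. The adjusted p was 2.26e-05 for Rpl39l, 3.1e-05 for Rpl10l, 4.21e-05 for Rps4l, 0.000566 for Rpl29, 0.00156 for Rpl3l and 0.00182 for Rpl4. It was 0.00557 for Rpl31, 0.00626 for Rpl27, 0.01002 for Rpl23, 0.0126 for Rps25, 0.0138 for Rpl24 and 0.0182 for Rpl17. It was 0.0227 for Rpl19, 0.0255 for Rpl39, 0.0301 for Rps27, 0.033 for Rps26 and 0.0416 for Rpl23a. Without replicate 1 of the WT day 6 cells without cytokines, Rpl23a (adjusted p = 0.0928), Rpl39 (0.0715), Rps26 (0.0793) and Rps27 (0.0605) no longer passed and 14 of the 18 did, while 8 other members were positive. Without replicate 2 of that group the members' median was −1.27. WT cells with cytokines were sorted and the other 3 groups were not, so the sort and the cytokines cannot be told apart in this interaction.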

How the results depend on the processing

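Each count of members called, of either direction, is given in this paragraph where it moved by more than 1.5 times; main counts stand in the report. With DESeq2 the counts were 2 for TKO against WT in EpiLCs, 7 on day 2, 7 on day 6 with cytokines, 15 and 5 for cytokines in TKO on days 2 and 6, and 53 for any difference. At an adjusted p below 0.01 they were 2 (TKO against WT, day 2), 1 (day 6 with cytokines), 3 and 8 (WT to day 2 and to day 6), 11 (cytokines in WT), 0 for both steps and both cytokine comparisons in TKO, 15 for any difference and 9 for the interaction. At a log2 fold change beyond 1, 16 remained for TKO against WT on day 6 without cytokines and 7 for cytokines in WT. Without the filter on low counts there were 3, 12 and 7 for TKO against WT in EpiLCs, on day 2 and on day 6 with cytokines, 8 and 23 for the WT steps, 8 for TKO to day 2, 21 and 6 for cytokines in TKO on days 2 and 6, and 61 for any difference. Fitting only the libraries compared gave 4, 21, 6 and 8 for TKO against WT in EpiLCs, on day 2 and on day 6 without and with cytokines, 28 and 1 for the WT steps, 4 for cytokines in WT, 19 and 6 for the TKO steps, 41 and 10 for cytokines in TKO on days 2 and 6, and 11 for the interaction.

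Library size alone shifted the median of all genes by up to 0.57 and moved the distance of the members' median from it by at most 0.02. The counts were then 3 for TKO against WT in EpiLCs, 7 for cytokines in WT, 0 for TKO to day 2, and 2 and 17 for cytokines in TKO on days 2 and 6. The members' medians changed sign to 0.10 (TKO against WT in EpiLCs), 0.020 (day 2), 0.26 (WT to day 2), 0.14 (TKO to day 2) and −0.35 (cytokines in TKO on day 6). Library size without Rn45s gave 2 for TKO against WT in EpiLCs and 1 each for TKO to day 2 and cytokines in TKO on day 2. From day 2 to day 6 in WT, Rps24 changed sign to 0.083 and Rps4x to 0.070 with library size alone, and Rps24 to 0.012 with DESeq2 and 0.012 with its factors. As a share of all counts with Rn45s, the members took 3.39, 3.96 and 3.56% in WT EpiLCs, day 2 and day 6 with cytokines, and 3.67, 3.91, 4.64, 4.50 and 3.70% in TKO EpiLCs, day 2 without and with and day 6 without and with cytokines. The TOP tract within 5 bases of the start gave 42.11 and 18.34% in place of 18.42 and 2.503%.

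Chosen after seeing the data, a fit without both WT day 6 libraries without cytokines gave 3, 18 and 9 for TKO against WT in EpiLCs, on day 2 and on day 6 with cytokines, 17 and 20 for WT and TKO to day 2, 35 and 12 for cytokines in TKO on days 2 and 6, and 54 for any difference. Leaving out each library in turn gave ranges of 1 to 3, 2 to 18, 18 to 74 and 1 to 9 for TKO against WT in EpiLCs, on day 2 and on day 6 without and with cytokines, 3 to 17 and 5 to 79 for the WT steps, 11 to 79 for cytokines in WT, 0 to 20 and 0 to 1 for the TKO steps, 0 to 35 and 0 to 12 for cytokines in TKO on days 2 and 6, 12 to 63 for the interaction and 23 to 83 for any difference. The highest counts were reached without a WT day 6 library without cytokines in all of these but the TKO step from day 2 to day 6. The lowest were reached without replicate 1 of the WT EpiLCs (any difference, WT to day 2, TKO against WT in EpiLCs, TKO from day 2 to day 6), of WT day 2 (TKO against WT on day 2, WT to day 6), of WT day 6 with cytokines (TKO against WT there), of WT day 6 without cytokines (cytokines in WT), or without a TKO library of the groups compared.

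Some log2 values changed sign when 1 library was left out. Without replicate 1 or 2 of the WT day 6 cells without cytokines, the members' median ran from −0.069 to 1.17 for TKO against WT and from −1.27 to 0.024 for the interaction. In that genotype comparison the ranges were −0.052 to 1.22 for Rps4x, −1.31 to 0.52 for Rpl22l1, −0.99 to 0.29 for Rpl37a and −1.08 to 0.71 for Rps14. For cytokines in WT they were −0.72 to 0.39 for Rpl11, −0.89 to 0.91 for Rpl41 and −0.77 to 1.01 for Rps14, and from day 2 to day 6 in WT −0.75 to 0.53 for Rpl37a, −0.85 to 0.42 for Rps4x and −0.80 to 0.46 for Rps24. In the interaction Rps2 ran from −0.26 to 1.46 and Rps14 from −0.040 to 1.74. Over the TKO day 6 libraries with cytokines the members' median ran from −0.23 to 0.19 against WT and from −0.051 to 0.28 for cytokines. Over other TKO libraries Rpl31 ran from −0.0057 to 0.37 and Rpl29 from −0.073 to 0.54 to day 2, Rplp0 from −0.11 to 0.052 and Rpl8 from −0.23 to 0.15 from day 2 to day 6, and Rpl39l from −1.10 to 0.13 for cytokines on day 2. None of these genes passed the test in these comparisons with all libraries.

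The replicate numbers did not pair the libraries: over 36 pairs of groups the correlation of same-numbered deviations ran from −0.15 to 0.16, median 0.01, with 6 over 0.1. A replicate block gave 2 in place of 4 members for cytokines in TKO on day 2 and moved no other count by more than 1.5 times.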
